A study of Mus musculus with 4 samples.

Results

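The 10 genes described here are transcriptional targets of p53: Perp, Mdm2, Ccng1, Zmat3, Phlda3, Aen, Sesn1, Btg2, Trp53inp1 and Plk2. They were taken by symbol from a table of 24340 genes, in which all 10 had a row. The set was chosen by known function with the FPKM ratios of these libraries in view, and Perp in particular was selected on its ratio between genotypes. The cells were lineage-negative, Kit-positive bone marrow cells of C57BL/6 mice, sorted to enrich immature cells. Every library carried JAK2V617F, an activated kinase allele, on a background that was either Tet2+/+ (wild type in the plots) or Tet2-/- (knockout in the plots). For each background there was 1 control library and 1 library from cells given ruxolitinib, which blocks JAK1 and JAK2, called the drug library below. The series text speaks of conditional inactivation in blood-forming cells; the driver of the deletion, the ages, the animals behind a library and the drug's dose and duration are not stated. With 4 libraries in 4 groups no difference has a replicate check, and none was tested.

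p53, encoded by Trp53, is a transcription factor that the ubiquitin ligase Mdm2 keeps at a low level and that DNA damage stabilises. It then switches on genes for cell cycle arrest, repair, antioxidant defence and cell death, and among them Mdm2 itself, which closes a negative feedback loop. In blood stem and progenitor cells the pathway limits survival after damage, and because p53 is regulated mainly as a protein, its activity is often followed through the RNA of its targets. By its title the series concerns the effect of TET2 loss, where TET2 is an oxidase acting on methylated DNA, on repair and on sensitivity to PARP inhibitors.

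FPKM are fragments per kilobase of transcript and 1000000 fragments. From the spacing of the lowest values the libraries held about 44200000 (Tet2+/+ control), 47700000 (Tet2+/+ drug), 54600000 (Tet2-/- control) and 52200000 (Tet2-/- drug) fragments, any scaling by the authors' software included. The 95% intervals of FPKM ratios below are exact binomial intervals on fragment numbers estimated from these depths, and they cover counting error only. Mast cell transcripts were abundant in all 4 libraries, with 10 markers summing to 18401 to 30130 FPKM. Of 7 stem and progenitor genes 5 were measured, among them Cd34 at 306.8 to 464.6 FPKM and Ly6a at 583.3 to 1033. Flt3, of the same list, was at 0 in all 4 libraries. Genotype and sex cannot be told apart: Xist, an RNA of female cells, was at 0.0241 and 0.0309 FPKM in the Tet2+/+ and 53.2 and 62.2 in the Tet2-/- libraries. In whole-sample RNA, fewer cells expressing a gene and less RNA per cell cannot be told apart.

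Promoter windows from RefSeq (GRCm38.p6, 250 bases before to 50 after a transcript start) were in hand for 7 of the 10 genes, in 9 windows. They were searched for the p53 response element, a 20-letter site built from a repeated 10-letter unit, here with no spacer between the copies. The unit reads the same on both strands. The upstream parts of Ccng1 and Mdm2 are shown because these are the most abundant members and each holds a complete unit. Capitals mark the best 20-letter stretch in Ccng1 and the 10-letter unit in Mdm2.
Ccng1 (chr11:40755287-40755536, minus strand): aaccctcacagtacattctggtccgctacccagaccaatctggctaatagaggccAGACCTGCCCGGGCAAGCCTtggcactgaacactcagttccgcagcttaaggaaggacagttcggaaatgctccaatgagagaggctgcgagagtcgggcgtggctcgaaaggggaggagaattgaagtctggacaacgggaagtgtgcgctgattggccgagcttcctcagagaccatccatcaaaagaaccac
Mdm2 (chr10:117710759-117711008, minus strand): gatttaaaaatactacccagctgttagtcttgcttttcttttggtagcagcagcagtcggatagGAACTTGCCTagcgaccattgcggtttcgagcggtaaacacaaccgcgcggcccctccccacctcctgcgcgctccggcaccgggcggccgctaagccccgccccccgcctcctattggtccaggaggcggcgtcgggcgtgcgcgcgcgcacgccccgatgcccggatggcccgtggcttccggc
The Ccng1 stretch (chr11:40755462-40755481) begins at position -195 from the transcript start and matches the site in 19 of 20 letters. Of 32851 promoter windows 29, or 0.0883%, hold a stretch with at most 1 mismatch. The best stretches of the 4 genes with a complete 10-letter unit are set side by side next, with letters that depart from the site in lower case.
Ccng1: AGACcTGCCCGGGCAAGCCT
Aen (chr7:78895937-78895956, plus strand): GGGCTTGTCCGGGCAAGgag
Sesn1 (chr10:41887266-41887285, plus strand): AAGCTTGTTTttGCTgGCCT
Mdm2 (chr10:117710925-117710944, minus strand): GAACTTGCCTAGcgAccaTT
Aen and the downstream start of Sesn1 matched in 17 of 20 letters, which 6.29% of all windows reach or exceed, and Mdm2 in 15. The known p53 elements of Mdm2 lie in its first intron, outside this window. A complete 10-letter unit is present in 8.36% of all windows, and a match here is a description of letters, not a measured binding site.

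Perp had the largest ratio between genotypes among the members. It encodes a tetraspan membrane protein of desmosomes in epithelia and is known as a p53 target in dying cells. Perp (chr10:18845071-18857072, plus strand, mm10) was at 0.924 FPKM in the Tet2+/+ control library, 1.06 in the Tet2+/+ drug library, 8.95 in the Tet2-/- control library and 7.59 in the Tet2-/- drug library. Both Tet2-/- libraries lay above both Tet2+/+ libraries, an order whose share over all genes was not counted. The Tet2-/- to Tet2+/+ ratio was 9.69 without drug (95% counting interval 7.57 to 12.4) and 7.15 with drug (5.72 to 9.004). About 72 and 89 fragments stood behind the Tet2+/+ values and 857 and 695 behind the Tet2-/- values. Perp was put in the set for this difference, so these ratios are a description, and it reaches the mean of 1 FPKM used as a filter through its Tet2-/- libraries.

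Ranked by genotype ratio on log2 of FPKM + 1 among 9493 measured protein-coding genes, Perp was at place 6 without drug and 11 with drug. In both pairs at once, 4 other coding genes were at or above it. Perp was chosen for this ratio, so its high places follow from the choice and are a description. The drug to control ratio of Perp was 1.15 (0.8304 to 1.59) in Tet2+/+ and 0.848 (0.767 to 0.939) in Tet2-/- cells, close to 1 beside the genotype ratios. In the authors' deposited table the q-value of Perp was 0.000746 in both genotype comparisons, 0.747 for the drug in Tet2+/+ and 0.381 for the drug in Tet2-/-. Those q-values compare single libraries, not conditions.

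The 5 coding genes whose profiles over the 4 libraries lay closest to that of Perp, by Euclidean distance of centred log2 values, were Fbp1, Fam102b, Id3, Ifi203 and Mndal, at distances of 0.14 to 0.49. Fbp1, an enzyme of gluconeogenesis on chromosome 13, was closest, at 0.193 and 0.179 FPKM in the Tet2+/+ and 4.53 and 4.34 in the Tet2-/- libraries. Id3, an inhibitor of basic helix-loop-helix factors on chromosome 4, was at 4.18 and 3.72 FPKM in the Tet2+/+ and 16.8 and 16.3 in the Tet2-/- libraries. Ifi203 and Mndal, both on chromosome 1, belong to a family of interferon-inducible genes. Mndal was at 0.447 and 0.609 FPKM in the Tet2+/+ and 4.55 and 6.64 in the Tet2-/- libraries. All 5 were picked for profiles like that of Perp, so their lower values in Tet2+/+ and higher values in Tet2-/- libraries follow from the selection. Fbp1, Ifi203 and Mndal, like Perp, reach the filter of 1 FPKM through their Tet2-/- libraries. None of the 5 lies on chromosome 10 with Perp.

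Most desmosome and epithelial genes had a mean under 1 FPKM. Of 14 such genes only the plakophilins Pkp3 and Pkp4 passed the filter, and Dsg2, Dsg3, Dsc3 and Krt18 were listed at 0 in all 4 libraries. Pkp3 was at 4.86 and 4.71 FPKM in the Tet2+/+ and 9.195 and 9.26 in the Tet2-/- libraries. Jup, which encodes plakoglobin, lay the other way, at 0.494 and 0.511 FPKM in the Tet2+/+ and 0.106 and 0.118 in the Tet2-/- libraries, and Pkp1 was at 0.937 and 0.194 and at 0.415 and 0.0665. The 14 genes, of which Pkp3 and Pkp4 gave most of the total, summed to 13.1 and 13.02 FPKM in the Tet2+/+ and 18.2 and 18.2 in the Tet2-/- libraries. Markers of other blood cells differed between the genotypes in both directions. Of 4 basophil genes, 2 were at least 1.5-fold higher in Tet2-/- cells in both pairs, the proteases Mcpt8 and Prss34, while Cd200r3 at 317.8, 266.8, 274.4 and 281.4 FPKM and Itgb7 at 128.8, 141.6, 107.1 and 130.2 FPKM (Tet2+/+ control, Tet2+/+ drug, Tet2-/- control, Tet2-/- drug) were not. Prss34 was at 0.266 and 0.548 FPKM in the Tet2+/+ and 11.3 and 12.8 in the Tet2-/- libraries. The 4 basophil genes summed to 541.2 and 504.5 FPKM in Tet2+/+ and 669.4 and 678.2 in Tet2-/-, and 6 mature neutrophil genes, of which 0 were measured, to 0.249 and 0.513 and to 1.296 and 2.27. Other lists had lower sums in Tet2-/- cells, carried by abundant genes. The 7 megakaryocyte genes summed to 842.2 and 962.7 FPKM in Tet2+/+ and 570.1 and 707.2 in Tet2-/-. Most of that sum was Itga2b, at 664.7 and 742.8 FPKM in the Tet2+/+ and 441.8 and 529.0 in the Tet2-/- libraries. Pf4 and Ppbp, with means under 1 FPKM, lay the other way, Pf4 at 0.232 and 0.488 and at 1.08 and 1.24. The 8 granulocyte-monocyte genes summed to 98.4 and 118.7 FPKM in Tet2+/+ and 36.4 and 39.6 in Tet2-/-. Most of the latter sum was the protease Ctsg, at 90.4 and 108.2 FPKM in the Tet2+/+ and 27.1 and 27.3 in the Tet2-/- libraries. Mpo, Elane, Prtn3, Ly6c2 and Csf1r, each with a mean under 1 FPKM, lay the other way in both pairs. Mpo was at 0.0380 and 0.0445 FPKM in the Tet2+/+ and 1.13 and 1.31 in the Tet2-/- libraries. Of the 10 mast cell markers, 3 were at least 1.5-fold lower and 1 higher in Tet2-/- cells without drug, and 2 lower and 1 higher with drug. Beside these and the basophil counts, 5.06% of all measured genes were as far lower and 3.88% higher without drug. With drug the shares were 3.34% and 2.97%. The part of these cell types in the Perp values was not tested. Near Perp on chromosome 10, in a set chosen after its values were seen, Tnfaip3, which dampens NF-kB signalling and starts 155.8 kb away, was at 11.7, 14.9, 10.03 and 14.6 FPKM in the Tet2+/+ control, Tet2+/+ drug, Tet2-/- control and Tet2-/- drug libraries, with overlapping genotypes. The guanine nucleotide exchange factor family gene Arfgef3, which starts at -257 kb from Perp, was at 0.556, 0.265, 0.9999 and 0.736 FPKM in the same order, with both Tet2-/- libraries above both Tet2+/+ libraries and a mean under 1 FPKM. The other 3 genes that start within 300 kb were at or near 0.

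**Figure D1:**
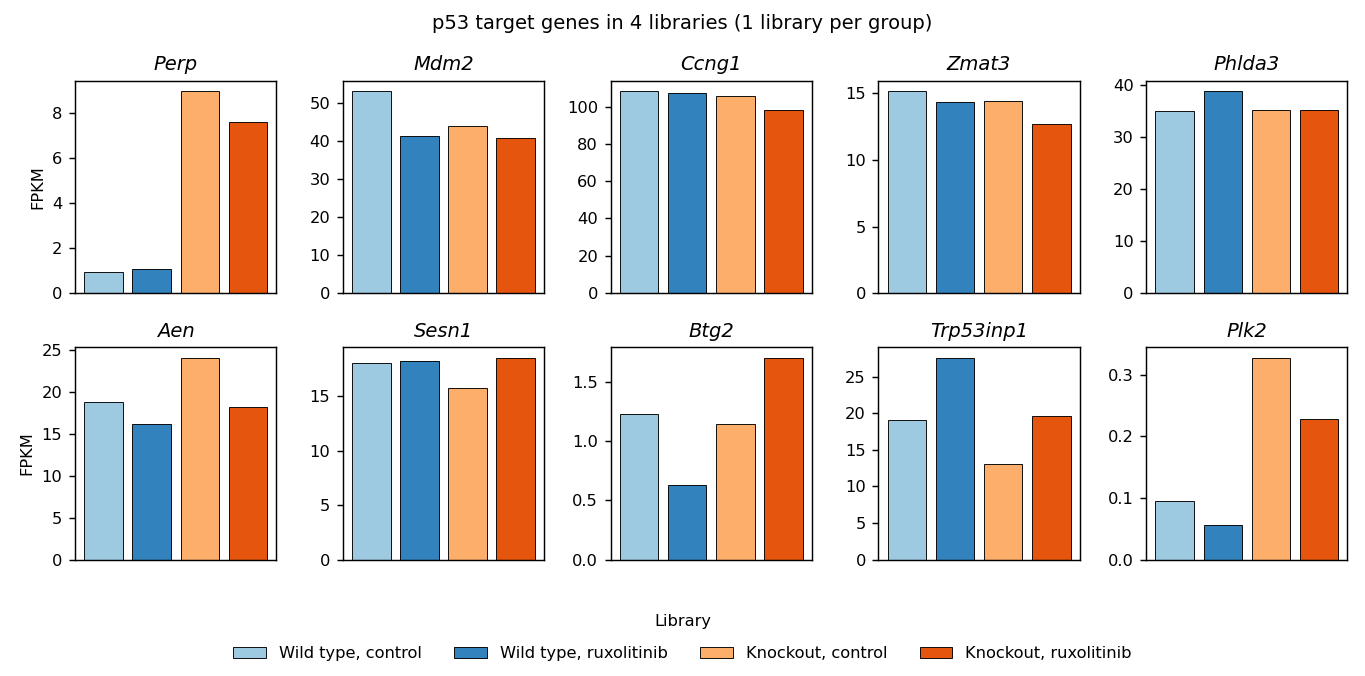
FPKM (vertical axes, each from 0) of the 10 p53 target genes in the 4 libraries, 1 bar per library. Perp stands at 0.924 and 1.06 in Tet2+/+ and at 8.95 and 7.59 in Tet2-/- cells, while Ccng1 lies between 98.0 and 108.3 in all 4.

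Mdm2, the ligase that degrades p53, was highest in the Tet2+/+ control library. Mdm2 (chr10:117688875-117710758, minus strand) was at 53.2 FPKM in the Tet2+/+ control library, 41.4 in the Tet2+/+ drug library, 44.1 in the Tet2-/- control library and 40.7 in the Tet2-/- drug library. The other 3 libraries lay close together below it. The drug ratio was 0.778 (0.751 to 0.806) in Tet2+/+ and 0.924 (0.893 to 0.957) in Tet2-/- cells. The genotype ratio was 0.829 (0.802 to 0.857) without and 0.985 (0.9497 to 1.02) with drug. Both of the lower ratios use the Tet2+/+ control library, which the genotype comparison without drug and the drug comparison in Tet2+/+ share. In the authors' deposited table Mdm2 had a q-value of 0.0517 for the drug in Tet2+/+ and 0.192 for the genotype without drug.

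Of the genes that set the p53 level, Cdkn2a had the largest ratios. Its locus encodes the Mdm2 inhibitor ARF and the cyclin-dependent kinase inhibitor p16, which 1 value per gene does not separate. Cdkn2a was at 141.2 and 125.6 FPKM in the Tet2+/+ and 38.7 and 35.8 in the Tet2-/- libraries. The log2 genotype ratios of Cdkn2a were -1.84 without and -1.78 with drug, and its drug ratios -0.17 in Tet2+/+ and -0.11 in Tet2-/-. The RNA of p53 itself differed far less, with Trp53 at 96.9, 110.4, 92.8 and 99.2 FPKM in the Tet2+/+ control, Tet2+/+ drug, Tet2-/- control and Tet2-/- drug libraries, the order used for every list of 4 values from here. Mdm4, the partner of Mdm2 that blocks p53, was at 17.7, 17.4, 16.4 and 17.1 FPKM. Of 19 genes for p53 and its regulators 17 were measured; without drug, 1 was at least 1.5-fold higher in Tet2-/- cells, the checkpoint kinase Chek1 at 4.79, 5.603, 8.34 and 8.79 FPKM, and 1 lower, Cdkn2a. With drug the counts were 0 higher and 1 lower, and for the drug 0 in either direction in both genotypes. Of all measured genes, 3.88% were as far higher and 5.06% lower in Tet2-/- cells without drug, and 2.97% and 3.34% with drug. For the drug the shares were 1.05% higher and 2.64% lower in Tet2+/+, and 1.67% and 2.2% in Tet2-/- cells.

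Ccng1, Zmat3 and Phlda3 lay near a ratio of 1 in every comparison. Ccng1, an atypical cyclin that acts on Mdm2 through a phosphatase (chr11:40748552-40755286, minus strand), was the most abundant member, at 108.3 FPKM in the Tet2+/+ control library, 107.4 in the Tet2+/+ drug library, 105.9 in the Tet2-/- control library and 97.96 in the Tet2-/- drug library. Only the Tet2-/- drug library stood slightly below the others, and the highest value is 1.11 times the lowest. The genotype ratio was 0.978 (0.958 to 0.999) without and 0.912 (0.893 to 0.932) with drug. This is the gene whose promoter window holds the 19 of 20 letter match shown above.

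Zmat3, a zinc finger protein that binds RNA (chr3:32334794-32367438, minus strand), was at 15.2, 14.3, 14.4 and 12.7 FPKM. The Tet2-/- drug library was the lowest, with a drug ratio of 0.879 (0.847 to 0.913). Phlda3, a repressor of the survival kinase Akt (chr1:135766085-135769134, plus strand), was at 34.96, 38.7, 35.2 and 35.1 FPKM. The Tet2+/+ drug library stood above the other 3, with a drug ratio of 1.11 (1.04 to 1.18).

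Aen, a nuclease that cuts DNA in apoptosis, was highest in the Tet2-/- control library. Aen (chr7:78895927-78908833, plus strand) was at 18.8 FPKM in the Tet2+/+ control library, 16.2 in the Tet2+/+ drug library, 24.1 in the Tet2-/- control library and 18.2 in the Tet2-/- drug library. The drug library was lower than its control in both genotypes, and the Tet2-/- library higher than its Tet2+/+ counterpart in both pairs. The drug ratio was 0.859 (0.815 to 0.905) in Tet2+/+ and 0.754 (0.721 to 0.788) in Tet2-/- cells. The genotype ratio was 1.28 (1.22 to 1.34) without and 1.12 (1.07 to 1.18) with drug. Of the 4 q-values for Aen in the authors' deposited table the lowest was 0.0291, for the drug in Tet2-/-.

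Trp53inp1 had the opposite directions to Aen, lower in Tet2-/- and higher with drug. It encodes a nuclear and autophagy-linked protein that promotes p53 activity and cell death. Trp53inp1 (chr4:11156441-11174377, plus strand) was at 19.2 FPKM in the Tet2+/+ control library, 27.6 in the Tet2+/+ drug library, 13.05 in the Tet2-/- control library and 19.6 in the Tet2-/- drug library. The Tet2-/- control library was the lowest and the Tet2+/+ drug library the highest, with the other 2 nearly equal. The drug ratio was 1.44 (1.39 to 1.498) in Tet2+/+ and just under 1.5 (1.44 to 1.56) in Tet2-/- cells. The genotype ratio was 0.681 (0.652 to 0.712) without and 0.709 (0.683 to 0.734) with drug. On log2 of FPKM + 1 these ratios stayed short of 1.5-fold. In the authors' deposited table the q-values of Trp53inp1 were 0.00197 for the genotype with drug and 0.000746 for the other 3 comparisons.

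Sesn1, a sestrin that restrains the growth kinase complex mTORC1, is like Trp53inp1 a target of FOXO factors as well as of p53. Sesn1 (chr10:41810574-41908436, plus strand) was at 18.1 FPKM in the Tet2+/+ control library, 18.3 in the Tet2+/+ drug library, 15.7 in the Tet2-/- control library and 18.6 in the Tet2-/- drug library. The Tet2-/- control library was low and the other 3 lay together. Its drug ratio was 1.01 (0.957 to 1.07) in Tet2+/+ and 1.18 (1.12 to 1.24) in Tet2-/- cells.

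Of 10 other FOXO targets 9 were measured, with a median log2 drug ratio of 0.25 in Tet2+/+ and 0.47 in Tet2-/- cells, against 0.0068 and 0.0042 over all measured genes. At 1.5-fold or more, 2 were higher and 2 lower with drug in Tet2+/+, beside 1.05% and 2.64% of all measured genes. In Tet2-/- cells 3 were higher and 0 lower, beside 1.67% and 2.2%. The genotype medians were -0.64 without and -0.12 with drug; the latter turned to 0.0087 in TPM, where values are rescaled to sum to 1000000 per library. Txnip, a brake on glucose uptake, was at 198.5, 269.8, 114.96 and 160.3 FPKM. Pik3ip1, an inhibitor of PI3 kinase, was at 31.4, 48.96, 18.5 and 33.9 FPKM. Both were named after their values were seen, and both were lowest in the Tet2-/- control and highest in the Tet2+/+ drug library, as Trp53inp1 was. The genes with the largest ratios were divided. Klf2, a transcription factor of quiescence, was at 31.999, 11.3, 14.3 and 12.1 FPKM, and Irs2 at 2.22, 0.441, 1.06 and 0.435, both highest in the Tet2+/+ control library. Sesn3 at 8.89, 10.8, 3.59 and 4.72 FPKM and Bcl6 at 0.887, 2.44, 0.524 and 2.08 were highest in the Tet2+/+ drug library. The part of FOXO factors in the Trp53inp1 and Sesn1 values was not tested.

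Btg2, an antiproliferative factor that recruits the deadenylation machinery, was low throughout, with drug ratios of opposite direction in the genotypes. Btg2 (chr1:134074865-134079155, minus strand) was at 1.23 FPKM in the Tet2+/+ control library, 0.628 in the Tet2+/+ drug library, 1.15 in the Tet2-/- control library and 1.71 in the Tet2-/- drug library. The control libraries lay close together, the Tet2+/+ drug library was the lowest and the Tet2-/- drug library the highest. The drug ratio was 0.511 (0.381 to 0.6803) in Tet2+/+ and 1.49 (1.21 to 1.84) in Tet2-/- cells, from 138, 76, 159 and 227 estimated fragments. The genotype ratio was 0.931 (0.738 to 1.18) without and 2.72 (2.097 to 3.59) with drug. In the authors' deposited table the q-values of Btg2 were 0.000746 for the drug in Tet2+/+, 0.0494 for the drug in Tet2-/-, 0.867 for the genotype without drug and 0.000746 for the genotype with drug.

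Plk2, a polo-like kinase of centriole duplication and stress responses, did not pass the filter. Plk2 (chr13:110395044-110400843, plus strand) was at 0.0951 FPKM in the Tet2+/+ control library, 0.0555 in the Tet2+/+ drug library, 0.328 in the Tet2-/- control library and 0.228 in the Tet2-/- drug library, from 11, 7, 47 and 31 estimated fragments. Both Tet2-/- libraries lay above both Tet2+/+ libraries, with a genotype ratio of 3.44 (1.77 to 7.397) without and 4.11 (1.75 to 10.9) with drug. For the drug both intervals included 1, 0.194 to 1.67 in Tet2+/+ and 0.424 to 1.11 in Tet2-/-. The authors' deposited table lists Plk2 as not tested.

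Btg2 and Plk2 are also known as immediate early genes, which respond within a short time to growth factor and stress signals. Of 17 other immediate early genes 14 were measured, and 12 of them were highest in the Tet2+/+ control library. The share of all measured genes highest in that library is not given here. Their median log2 drug ratio was -1.002 in Tet2+/+ and -0.032 in Tet2-/- cells. At 1.5-fold or more 9 were lower and 0 higher in Tet2+/+, beside 2.64% and 1.05% of all measured genes. In Tet2-/- cells 0 differed, beside 2.2% lower and 1.67% higher. Fosb, a subunit of the AP-1 factor, was at 21.3, 3.13, 4.18 and 2.6996 FPKM. Egr2, a zinc finger factor, was at 21.8, 3.07, 4.32 and 3.63 FPKM. Nr4a2, a nuclear receptor, was not lower with drug in Tet2+/+, at 1.698 FPKM in the control and 1.82 in the drug library. The log2 drug ratio in Tet2-/- minus that in Tet2+/+ was above 0 in all 14, with a median of 0.88, against -0.0083 over all measured genes. Egr1 was lower with drug in Tet2+/+ and higher in Tet2-/-, at 41.4, 16.6, 22.2 and 26.3 FPKM. In Tet2-/- cells the drug ratio was above 1 for 6 of the 14 and below 1 for 8. The log2 drug ratio of Btg2 in Tet2+/+ was -0.45, short of 1.5-fold on that scale, and its control libraries lay close together. The part of these genes' levels in the Btg2 ratios was not tested.

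**Figure D2:**
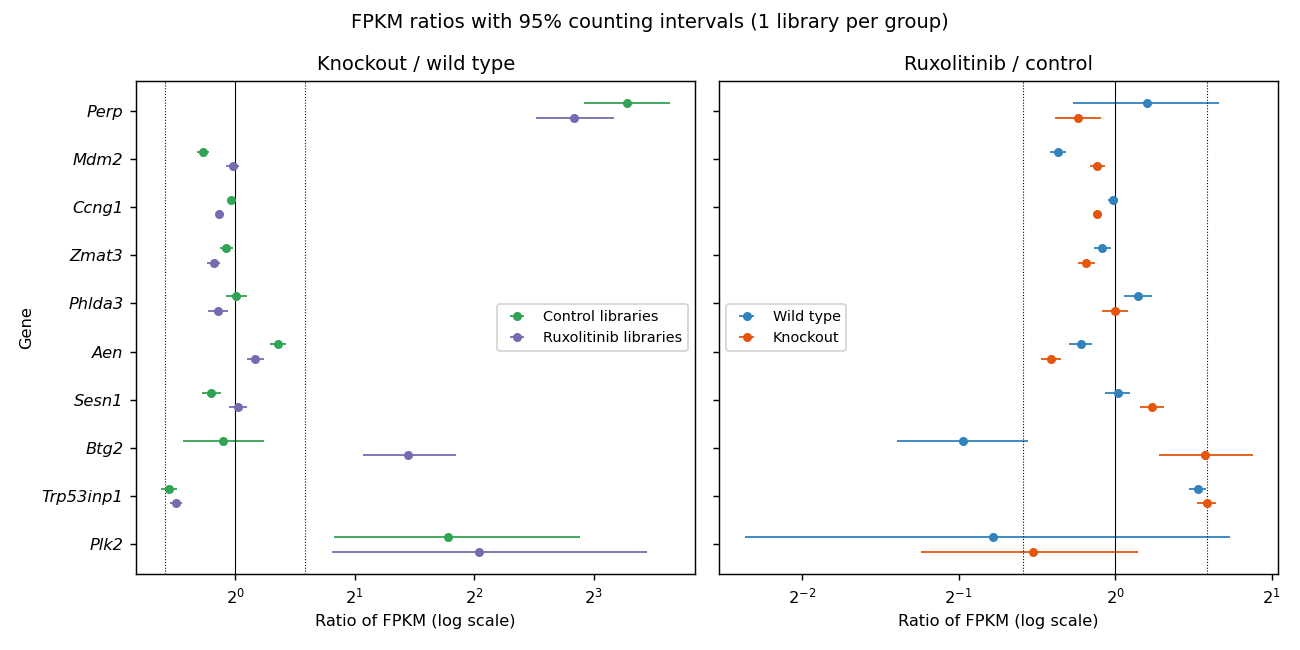
Ratio of FPKM (horizontal axes, log scale) for each of the 10 genes, Tet2-/- to Tet2+/+ on the left and drug to control on the right, with bars for the 95% counting interval and dotted lines at 1.5-fold. Perp lies at 9.69 and 7.15 on the left and Trp53inp1 at 1.44 and just under 1.5 on the right; the bars do not cover differences between animals or cultures.

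Of the 10 genes, 9 passed the filter. Without drug, 1 of them, Perp, was at least 1.5-fold higher in Tet2-/- cells, beside 3.88% of 10471 measured genes, and 0 were as far lower, beside 5.06%. With drug, 2 were higher, Perp and Btg2, beside 2.97%, and 0 lower, beside 3.34%. Nothing is read from these counts, since the members were chosen with the contrast in view. The median log2 genotype ratio was -0.056 without and -0.022 with drug, against 0.0028 and 0.00093 over all measured genes. In TPM these medians were 0.074 and 0.11, and the median of all measured genes moved by 0.15 and 0.13, so the sign of small genotype ratios flips with the scaling.

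For the drug, 0 of the 9 reached 1.5-fold in either direction in either genotype. Of all measured genes 1.05% were as far higher and 2.64% lower in Tet2+/+ cells, and 1.67% higher and 2.2% lower in Tet2-/- cells. The members' medians were -0.012 in Tet2+/+ (0.029 in TPM) and -0.11 in Tet2-/-. In the same libraries all 7 listed targets of STAT5, the transcription factor downstream of JAK2, were at least 1.5-fold lower with drug in both genotypes. Among them Cish, an inhibitor of cytokine receptors, was at 174.1, 45.1, 113.8 and 40.7 FPKM. The difference between the drug ratios, Tet2-/- minus Tet2+/+, reached 1.5-fold in 1 member, Btg2, at 0.79, beside 1.82% of measured genes that were as far higher and 1.14% lower.

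**Figure D3:**
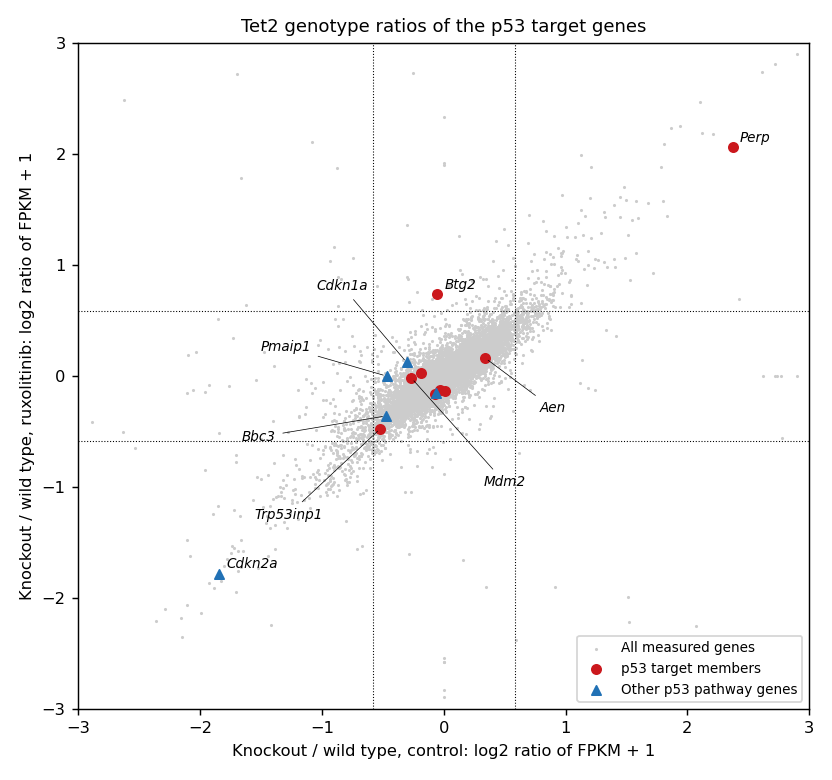
Log2 ratio of FPKM + 1 for Tet2-/- to Tet2+/+, control libraries on the horizontal and drug libraries on the vertical axis, for all measured genes in grey, the p53 target members in red and 5 other pathway genes as blue triangles; dotted lines mark 1.5-fold and 135 genes lie beyond the axes. Perp is at 2.37 and 2.06 and Cdkn2a at -1.84 and -1.78, while Ccng1, Zmat3, Phlda3, Sesn1 and Trp53 lie unlabelled near the centre, where the sign flips in TPM for some.

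**Figure D4:**
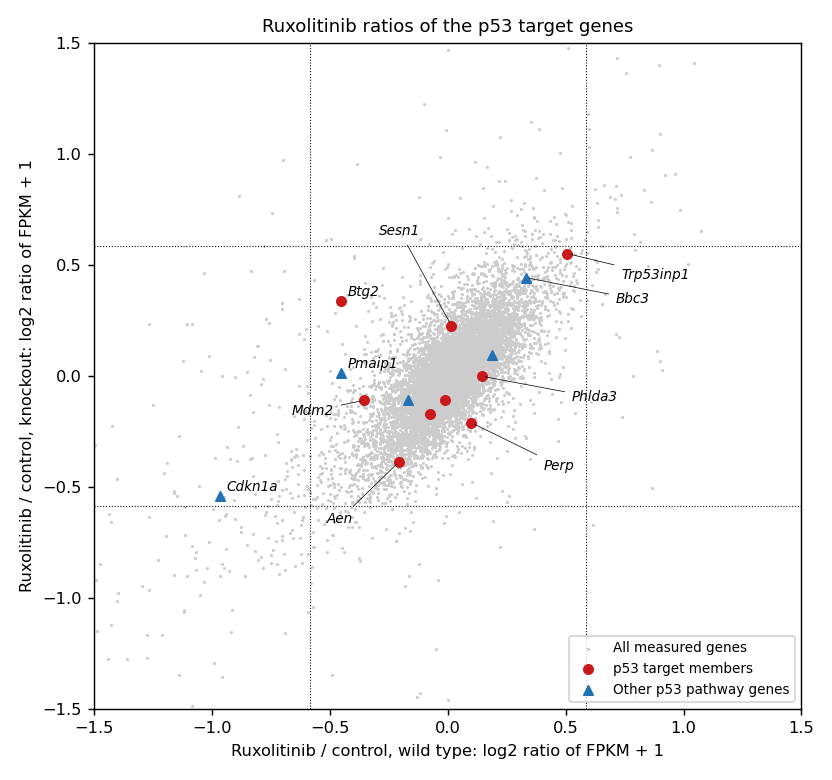
Log2 ratio of FPKM + 1 for drug to control, Tet2+/+ on the horizontal and Tet2-/- on the vertical axis, with the same symbols; 192 genes lie beyond the axes. Trp53inp1 is at 0.51 and 0.55, Btg2 at -0.45 and 0.34 and Cdkn1a at -0.97 and -0.54, while Ccng1, Zmat3, Trp53 and Cdkn2a are unlabelled.

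Of 30 other p53 targets 28 were measured. At 1.5-fold or more, 0 were higher and 1 lower in Tet2-/- cells without drug, and 0 and 1 with drug. In both pairs it was Gadd45a, a stress protein that binds cell cycle kinases, at 10.4, 10.3, 6.46 and 6.17 FPKM. For the drug, 0 were higher and 1 lower in Tet2+/+, and 0 in either direction in Tet2-/- cells. The shares of all measured genes that stand beside these counts are those given above for the members. The genotype medians were -0.042 and -0.034 and turned to 0.093 and 0.080 in TPM. The drug medians were -0.018 in Tet2+/+ (0.020 in TPM) and -0.040 in Tet2-/- cells.

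The target that was lower with drug in Tet2+/+ cells was Cdkn1a, which encodes the cell cycle inhibitor p21. Cdkn1a was at 410.5 FPKM in the Tet2+/+ control library, 209.4 in the Tet2+/+ drug library, 332.1 in the Tet2-/- control library and 227.6 in the Tet2-/- drug library. Both drug libraries lay below both control libraries. The log2 drug ratio of Cdkn1a was -0.97 in Tet2+/+ and -0.54 in Tet2-/- cells, and its q-value in the authors' deposited table was 0.000746 in both.

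The apoptosis genes among these targets did not share a pattern. Bax, a pore-forming death protein, was at 235.7, 237.1, 248.9 and 230.3 FPKM. Bbc3, which encodes Puma, was at 33.2, 41.97, 23.6 and 32.4 FPKM, lowest in the Tet2-/- control and highest in the Tet2+/+ drug library as Trp53inp1 was. Pmaip1, which encodes Noxa, was at 15.4, 10.97, 10.8 and 10.9 FPKM, high in the Tet2+/+ control library alone.

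Of 15 cell cycle genes that p53 is known to repress through p21 and the DREAM complex, all measured, 4 were at least 1.5-fold higher in Tet2-/- cells and 0 lower without drug, beside 3.88% and 5.06% of all measured genes. With drug the counts were 1 and 0, beside 2.97% and 3.34%. The ratio was above 1 for 14 of the 15 without drug, with Cenpa, a centromeric histone, at 76.1 FPKM in the Tet2+/+ and 73.6 in the Tet2-/- control library, and for 15 with drug. The median log2 ratios were 0.43 without and 0.397 with drug, against 0.0028 and 0.00093 over all measured genes. The share of all measured genes with a ratio above 1 is not given here. Mybl2, a transcription factor of proliferating cells, was at 6.71, 7.07, 12.8 and 11.6 FPKM. Aurkb, a kinase of chromosome segregation, was at 33.1, 33.3, 53.6 and 49.8 FPKM. For the drug 0 reached 1.5-fold in either genotype, with medians of 0.012 and -0.018, the latter 0.0051 in TPM. The log2 genotype ratio of Cdkn1a was -0.30 without and 0.12 with drug. The part of p53 and p21 in the levels of these cell cycle genes was not tested.

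**Figure D5:**
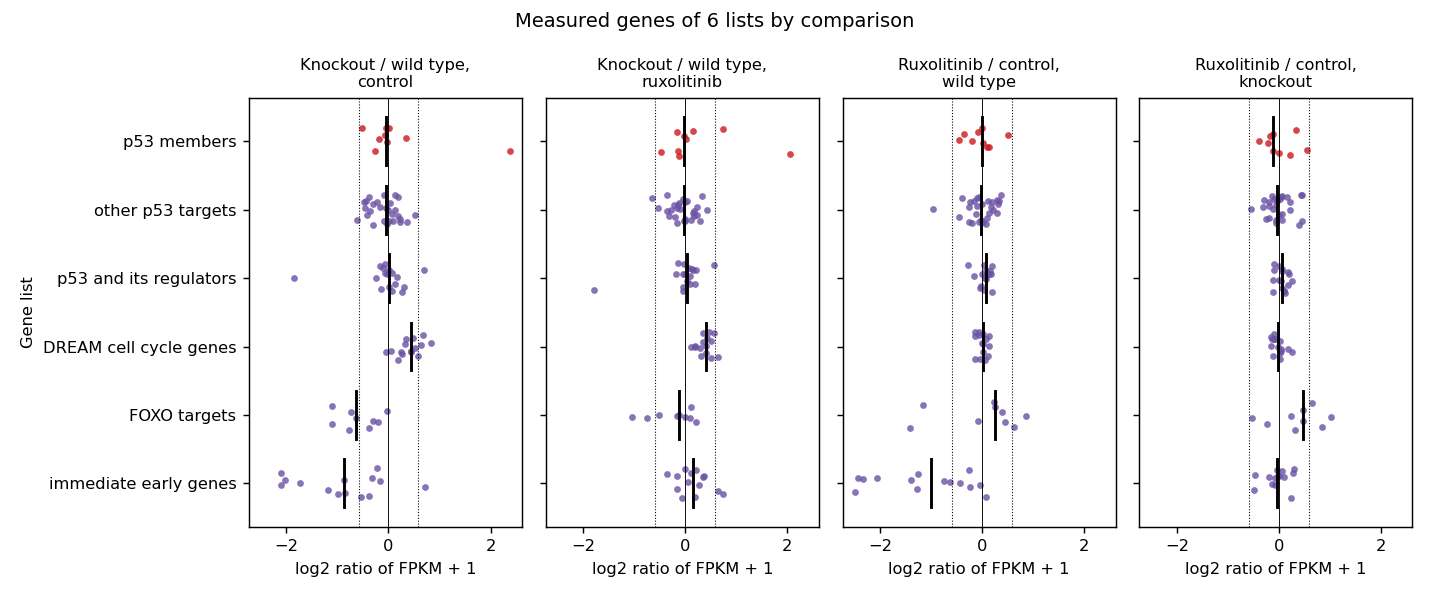
Log2 ratio of FPKM + 1 (horizontal axes) for the measured genes of 6 lists in the 4 comparisons, 1 point per gene with vertical jitter, bars at list medians and dotted lines at 1.5-fold. In the genotype comparison without drug the p53 members centre on -0.056 (0.074 in TPM) with Perp far to the right, and the DREAM cell cycle genes on 0.43.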

How the data were processed

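RNA depleted of ribosomal RNA was sequenced, per the labels' protocols. STAR and Cuffdiff were used with mm10, per the submitters' processing notes, which name no version or annotation. The authors deposited FPKM for 24340 genes and a second table with log2 fold changes and q-values for 6 pairs of libraries, of which 4 were used. Scaling between libraries is not stated.

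Libraries were grouped by their titles. Ratios were computed as log2(FPKM + 1), a scale that compresses differences of low genes. A gene counted as measured at a mean of 1 FPKM or more, and 1.5-fold or more was called. No p-value was computed, since each group has 1 library. How many of all genes have both libraries of a genotype, or both drug libraries, above or below the others was not counted. Shares over all genes are also not given for counts of genes highest in 1 library or with a ratio above 1. Such orders and counts are descriptions. Depth came from the spacing of low values in 1-transcript genes longer than 1500 bases, less 200 bases for fragment length; 80.7% to 82.4% of these values lay within 0.15 of a whole multiple. Estimated fragments are FPKM times length over that step; they are not counts and are approximate for genes with several transcripts. No exon of the 10 genes overlaps another gene in GENCODE M21. The steps were tested on simulated data.

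All 10 members are described. Of each further list the rule gave counts, the median and up to 4 genes with the largest ratio among those at 1.5-fold or more; the text prints those that bear on the members, with fixed regulators and targets and the 5 genes nearest Perp. Txnip and Pik3ip1 were named after their values were seen. Members and lists were chosen with earlier results of these data known. Of marker lists whose sums are not given with the results, B cell genes summed to at most 0.391 FPKM and T and NK cell genes to at most 0.608. Erythroid genes summed to 28.8 to 58.6, stem and progenitor genes to 940.9 to 1514 and stroma and endothelium genes to 120.6 to 179.9. Alternatives were pseudocounts of 0.1 and 5, no filter, a filter of 5 FPKM, median centring, TPM, a 2-fold rule and leaving out Btg2 and Plk2. Software was Python (3.11.15) with numpy (2.4.6), pandas (2.3.3) and scipy (1.17.1), and plots were drawn in matplotlib (3.10.9).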

Additional observations from a re-analysis of the deposited data

Results flagged for a closer look

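Btg2 is listed here because its ruxolitinib ratio had opposite directions in the genotypes and differed between them by 0.79 on log2 of FPKM + 1, with 1 library per group. The difference was not tested. A difference above 0 was not particular to Btg2: of 14 other measured immediate early genes, 14 had one. Their median was 0.88, against -0.0083 over all measured genes. At 1.5-fold or more 9 of them were higher and 0 lower, beside 1.82% and 1.14% of all measured genes. The profile of Btg2 was not shared by most of them. In Tet2-/- cells their drug ratio was above 1 for 6 and below 1 for 8. The Tet2+/+ control library was the highest for 12 of the 14, while the control libraries of Btg2 lay close together. Without a pseudocount the Btg2 difference was 1.55, with an approximate counting range of 1.03 to 2.07. That range combines the wider sides of both drug intervals and is not an exact binomial interval.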

How the results depend on the processing

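No paired analysis was possible because each group has 1 library. No call at 1.5-fold changed direction in the alternatives run, while uncalled genotype ratios changed sign in TPM. With a pseudocount of 0.1 the genotype ratio of Perp was 3.14 without and 2.73 with drug, that of Btg2 with drug 1.31, its difference between the drug ratios 1.41, and 1 member, Btg2, was lower with the drug in Tet2+/+. With a pseudocount of 5 the genotype ratios were 1.24 and 1.05 for Perp, -0.42 and -0.41 for Trp53inp1 and 0.25 for Btg2 with drug; the drug ratios of Trp53inp1 were 0.43 in Tet2+/+ and 0.45 in Tet2-/-; 1 member was higher in Tet2-/- with drug, and 0 differed between the drug ratios. With a filter of 5 FPKM, which removes Perp and Btg2, 0 members were higher in Tet2-/- without or with drug and 0 in the difference, and the median with drug was -0.13. In the difference between the drug ratios a 2-fold rule and leaving out Btg2 and Plk2 each left 0 members higher, and each left 1 higher in Tet2-/- with drug.

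In TPM the genotype ratios without and with drug stood at 2.85 and 2.49 for Perp, -0.12 and 0.11 for Mdm2, 0.12 and 0.0011 for Ccng1, 0.074 and -0.044 for Zmat3, 0.16 and -0.0080 for Phlda3, 0.496 and 0.29 for Aen, -0.048 and 0.15 for Sesn1 and -0.39 and -0.36 for Trp53inp1, with medians of 0.074 and 0.11. In TPM the drug ratio of Ccng1 in Tet2+/+ was 0.029, and 1 member, Trp53inp1, was at 1.5-fold higher with the drug in Tet2-/-. Depth limits Plk2, at 7 to 47 fragments, and Btg2, at 76 to 227. It also limits the Tet2+/+ values of Perp, at 72 and 89 fragments, on which both of its genotype ratios rest.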
